A study of Mus musculus with 4 samples.

Results

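Cytokines are small secreted proteins through which immune and other cells signal, and their receptors pass the signal on through JAK kinases and STAT transcription factors or, for the TNF and IL-1 families, through NF-kB. In the brain most of these genes are used by microglia, vascular cells and invading leukocytes rather than by excitatory neurons. DNA methylation in the CG context is found in all cell types, whereas methylation outside CG is a mark that mature neurons in particular build up after birth. Here 43 cytokine and cytokine receptor genes, out of 21779 protein-coding genes, were followed through a table of differentially methylated regions from mouse cortex. The list holds 23 ligands, 15 receptors and receptor subunits, and 5 genes of signalling downstream. A region belonged to a gene when it overlapped the gene body widened by 10 kb on both sides, and 135 of the 101350 listed regions did so. The genes were listed as mostly silent in cortical neurons, but no RNA was measured in these libraries, so that description was not tested.

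Methylation was read by whole-genome bisulfite sequencing, in which unmethylated cytosines are converted and methylated ones are not. The somatosensory cortex was taken at 2.5 months, and 2 libraries labelled Nsd1Nex-cKO (called cKO) stood against 2 labelled Nsd1fl/+ (called control). NSD1 methylates lysine 36 of histone H3, and Nex drives Cre in cortical excitatory neurons. The control genotype names 1 floxed allele, and the labels do not say whether control mice carried the driver, nor whether each library is 1 animal. DNA came from whole tissue, so each level is an average over neurons, glia, vascular cells and leukocytes, and a shift in the share of a cell type cannot be told apart from a change within it. How far Nsd1 was deleted cannot be read from these levels.

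Nearly all regions near these genes had less methylation in cKO. In the CG context 48 of 48 regions were lower in cKO, and in the CHH context (H is A, C or T) 85 of 87 were lower, while 0 CHG regions lay near a member. Among all listed regions within 10 kb of a protein-coding gene, 11.4% of 21700 CG regions and 32.7% of 24914 CHH regions were higher in cKO, against 0 of 48 and 2.30% near the members. The 2 CHH regions higher in cKO lay in Il1r1 and Jak2. Over the 48 CG regions, the median of the authors' group means was 73.1% in control and 38.1% in cKO. Over the 85 CHH regions lower in cKO it was 5.15% in control and 1.01% in cKO. These levels were close to those of all regions of the same kind near protein-coding genes, where the medians were 75.3% and 42.6% for CG losses and 5.6% and 1.06% for CHH losses. The authors' deposited table gives group means only, without values per library or read coverage, so no spread between libraries stands behind any difference and no test over mice was possible.

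CHH losses lay near a larger share of these genes than of all protein-coding genes, whereas the share with CG losses was near the background. The list was chosen with earlier results of these data known, so the shares describe it and are not a test. A CHH region lower in cKO lay near 28 of the 43 members (65.1%), where the share of all protein-coding genes, members included, was 28.8%. A CG region lower in cKO lay near 16 members (37.2%), close to the 33.4% of all protein-coding genes. Any region at all lay near 31 members (72.1% against 55.5%). CG regions higher in cKO were found near 0 members, against 9.11% of all protein-coding genes, and CHH regions higher in cKO near 2 (4.65% against 18.0%). CHG regions lay near 1.44% of all protein-coding genes. In 15 of the members CHH regions were listed without a CG region, in 2 (Il4 and Csf3) the reverse held, and 14 members had both. This split was not counted over all protein-coding genes, so whether it is particular to the members is unknown. The count with a CHH loss dropped to 12 members (27.9%, against 14.5% of all protein-coding genes) when CHH differences under 5 points were left out.

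Longer genes can hold more regions, so the shares were also read within classes of gene length, a split made with results in view. Of 15 members under 10 kb, 6 had a CHH loss (40.0%, against 20.6% of all protein-coding genes of that length). Of 22 members of 10 to 50 kb, 17 had one (77.3% against 27.9%), and of 6 members over 50 kb, 5 (83.3% against 43.6%). The share with a CHH loss was thus above that of all protein-coding genes in each class. For CG losses the shares were nearer to those of all protein-coding genes. They were 2 of the short members (13.3% against 19.6%), 10 of the middle class (45.5% against 33.2%) and 4 of the long ones (66.7% against 55.6%). These counts are small, and whether CG losses depend on length among the members was not tested. The median length of the members was 14.6 kb and that of all protein-coding genes 17.2 kb.

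**Figure D1:**
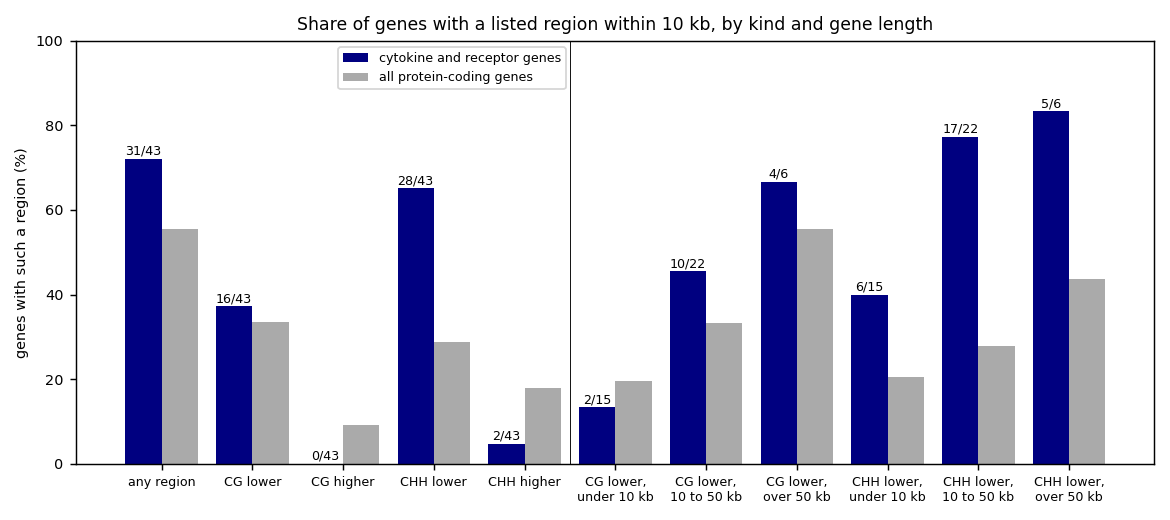
Percent of genes with at least 1 listed region within 10 kb (vertical axis) for the 43 members (blue, with counts above the bars) and for all 21779 protein-coding genes (grey), by context and direction in cKO on the left and by gene length on the right. The CHH loss bars of the members (65.1% overall) stand above the grey bars in every length class, while the CG loss bars (37.2% overall) stay near them.

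Regions at the start sites themselves are rare in the whole table. RefSeq windows of 250 bases before to 50 bases after a start were matched for 36 of the 43 members, with 48 windows in all, while 7 members had none. Of the 48 windows 0 overlapped a region, and of 21263 such windows of protein-coding genes 357 did, or 1.68%, so the members' count is near the background. The members' windows were poor in CpGs, with a median of 6 against 13 for protein-coding genes, and 31.2% against 56.8% held at least 10. The nearest region to any member's window was a CG loss 208 bp from that of Il4ra, the receptor chain shared by IL-4 and IL-13. The windows printed belong to the 4 members with the strongest CG losses by area statistic and to the ligand with the strongest CHH loss. A high area statistic need not mean a large difference. Tnfaip2 entered by a CG loss over 46 CpGs with -10.6 points, the smallest difference of the 48 CG losses. Chosen by their losses, the printed windows hold 5 to 23 CpGs, and only that of Il21 is under the members' median of 6. They are given 5′ to 3′ on the coding strand (GRCm38.p6, the assembly of mm10), with each CpG in capitals.
Jak3 (chr8:71676133-71676432, plus strand, 9 CpGs): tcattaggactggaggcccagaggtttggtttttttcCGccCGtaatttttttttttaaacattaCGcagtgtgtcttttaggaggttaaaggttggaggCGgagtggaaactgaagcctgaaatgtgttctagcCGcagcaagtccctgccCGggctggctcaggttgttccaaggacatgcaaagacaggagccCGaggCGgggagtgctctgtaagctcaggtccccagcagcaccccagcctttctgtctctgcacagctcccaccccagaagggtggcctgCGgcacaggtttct
Tnfrsf1a (chr6:125349473-125349772, plus strand, 11 CpGs): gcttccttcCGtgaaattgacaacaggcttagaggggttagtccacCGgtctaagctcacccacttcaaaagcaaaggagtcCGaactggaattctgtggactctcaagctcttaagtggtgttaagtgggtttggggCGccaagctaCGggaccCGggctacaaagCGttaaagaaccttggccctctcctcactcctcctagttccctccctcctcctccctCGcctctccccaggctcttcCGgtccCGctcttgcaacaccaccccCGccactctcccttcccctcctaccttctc
Tnfaip2 (chr12:111442411-111442710, plus strand, 23 CpGs): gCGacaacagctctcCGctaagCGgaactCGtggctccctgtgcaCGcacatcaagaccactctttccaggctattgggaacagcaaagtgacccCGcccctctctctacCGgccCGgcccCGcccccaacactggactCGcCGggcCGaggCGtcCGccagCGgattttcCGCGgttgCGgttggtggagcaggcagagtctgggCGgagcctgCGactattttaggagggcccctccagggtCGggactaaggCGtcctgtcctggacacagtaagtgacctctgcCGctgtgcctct
Il1r2 (chr1:40085843-40086142, plus strand, 16 CpGs): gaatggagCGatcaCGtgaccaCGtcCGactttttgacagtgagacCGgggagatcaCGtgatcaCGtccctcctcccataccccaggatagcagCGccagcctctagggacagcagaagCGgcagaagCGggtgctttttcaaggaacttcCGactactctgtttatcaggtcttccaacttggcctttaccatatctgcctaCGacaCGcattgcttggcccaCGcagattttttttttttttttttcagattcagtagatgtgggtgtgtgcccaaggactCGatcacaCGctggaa
Il21 (chr3:37232587-37232886, minus strand, 5 CpGs): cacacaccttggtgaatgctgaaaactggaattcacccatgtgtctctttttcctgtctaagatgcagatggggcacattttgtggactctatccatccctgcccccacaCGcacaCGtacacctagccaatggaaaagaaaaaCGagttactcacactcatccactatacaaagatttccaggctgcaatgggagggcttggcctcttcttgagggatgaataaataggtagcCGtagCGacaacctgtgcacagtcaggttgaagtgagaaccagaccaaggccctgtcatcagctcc
The window of Tnfaip2 has the most CpGs of these 5 and that of Il21 the fewest. The nearest CG losses lay 474 bp before the Tnfrsf1a window and 610 bp past the Tnfaip2 window.

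**Figure D2:**
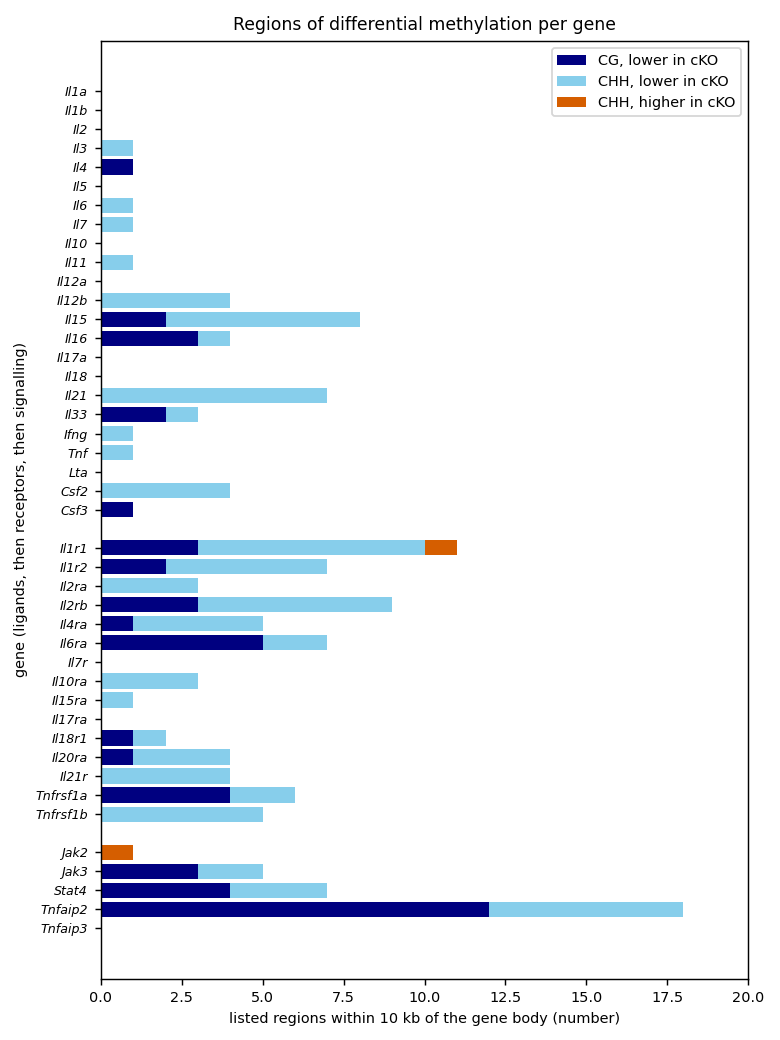
Number of listed regions within 10 kb of each gene body (horizontal axis), stacked by context and direction in cKO, for the ligands, the receptors and the signalling genes from top to bottom. Tnfaip2 has the longest bar with 18 regions, 12 members have none, and the orange part for regions higher in cKO appears in Il1r1 and Jak2 only.

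The regions of ligand genes were mostly CHH losses. Of the 23 ligands 14 had a region (60.9%, against 55.5% of all protein-coding genes), 12 a CHH loss (52.2% against 28.8%) and 5 a CG loss (21.7% against 33.4%). There were 28 CHH and 9 CG regions in all, with 0 higher in cKO. The densest was Il21 (chromosome 3, 37222759 to 37232636), which encodes a cytokine of activated T helper cells. It held 7 CHH losses and 0 CG regions, or 23.4 regions per 100 kb of widened gene. Of these, 6 lay in 1.99 kb of the first part of the gene, between 37229789 and 37231775, over 377 cytosines. Their levels were 4.20% to 8.28% in control and 0.446% to 1.37% in cKO, and weighted by cytosines they averaged 5.87% and 0.960%. The longest of them spans 442 bp and 155 cytosines and went from 5.68% in control to 1.02% in cKO. The other CHH loss, 1.5 kb past the end of the gene, had the highest control level of all CHH regions near the members, at 14.5%, with 4.58% in cKO.

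Il12b, the p40 subunit shared by IL-12 and IL-23, had 4 CHH losses and 0 CG regions. The one 2.46 kb before the gene went from 8.11% to 2.60%, and the 3 in the gene, within 3.50 kb from 44400559 to 44404062 on chromosome 11, from between 4.18% and 6.96% to between 0.520% and 2.02%. Il15, a growth factor of natural killer and memory T cells, had 6 CHH losses and 2 CG losses over a longer gene of 71.6 kb. Its CHH levels were 3.61% to 6.36% in control and 0.554% to 1.30% in cKO. Its CG losses, from 82.0% to 47.8% and from 64.9% to 24.4%, rest on 7 and 4 CpGs.

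Other ligands had 1 to 4 regions each. Il16, a ligand of CD4, had 3 CG losses, of which the 2 in the gene went from 80.8% to 47% and from 74.5% to 40.3%, and 1 CHH loss from 4.41% to 0.719%. Il33, an alarmin of the IL-1 family, had 2 CG losses over 7 and 4 CpGs, from 88.7% to 61.7% and from 92.6% to 63.6%, and 1 CHH loss from 4.87% to 0.520%. Ifng, the interferon of T and natural killer cells, had a single CHH loss inside the gene, from 7.22% to 1.19% over 69 cytosines. The single regions of Il6, Il7 (a lymphocyte growth factor), Il11 (of the IL-6 family) and Tnf (the main inflammatory cytokine of macrophages) lay outside the gene bodies and were CHH losses. The one 1.34 kb before Il6, an acute-phase cytokine, went from 5.89% to 1.22%. Csf3, the granulocyte growth factor, held a CG loss over 9 CpGs in its body, from 67.3% to 37.1%, and the CG loss of Il4, a cytokine of type 2 immunity, lay 8.28 kb before the gene, from 86.6% to 59.6% over 21 CpGs. Csf2, the granulocyte and macrophage growth factor, and Il3, a growth factor of blood progenitors, lie 15.2 kb apart on chromosome 11 and share 1 CHH loss between them (4.91% to 1.15%). Csf2 had 3 more CHH losses on its other side, and in all 4 the control level was between 4.91% and 6.93%.

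No region lay near 12 members, of which 9 were among the 23 ligands. The share of ligands with a region (60.9%) was still near that of all protein-coding genes (55.5%). The 12 were Il1a, Il1b, Il2, Il5, Il10, Il12a, Il17a, Il18 and Lta among ligands, Il7r and Il17ra among receptors, and Tnfaip3, an inhibitor of NF-kB signalling. Il1a and Il1b encode the agonists of the IL-1 receptors. Over the 12 members without a region, the nearest listed region lay 11.2 kb to 63.4 kb away, with a median of 24.9 kb. Related genes differed, with regions at Il21 and not at Il2, at Il12b and not at Il12a, and at Tnf and not at Lta, although Tnf and Lta lie 1.16 kb apart and the region of Tnf, on its far side, is 12.6 kb from Lta. As the file lists called regions only, the level at members without one is unknown.

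**Figure D3:**
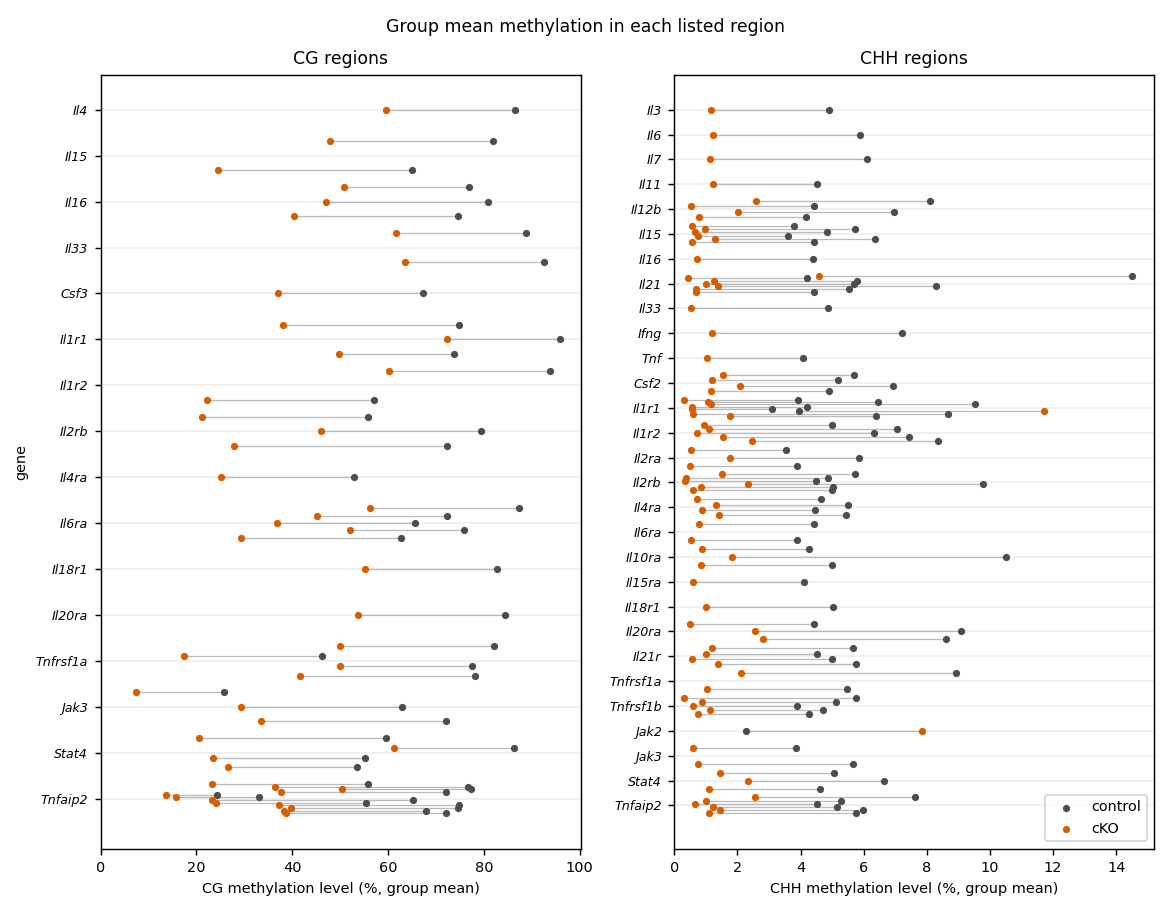
Authors' group mean methylation (horizontal axis, percent) in each listed region within 10 kb of a member, CG regions on the left and CHH regions on the right, with control in grey and cKO in orange joined by a line. All 48 CG lines run from a higher control level to a lower cKO level, and of the CHH lines only those of the Jak2 region and 1 Il1r1 region run the other way.

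Of the 15 receptor genes 13 had a region (86.7%), and these 13 all had a CHH loss, against 28.8% of all protein-coding genes and 27.9% of those of 10 to 50 kb. A CG loss lay near 8 of them (53.3%, against 33.4% and 33.2%). There were 46 CHH losses, 20 CG losses and 1 CHH gain in all. The median length of the receptor genes was 32.4 kb and that of the ligand genes 6.6 kb, so their counts are not on the same footing. Both IL-1 receptors were among the leading ones. Il1r2 encodes the decoy receptor that binds IL-1 without signalling. It held 5 CHH losses in 7.09 kb at the front of the gene, from 40087025 to 40094117 on chromosome 1, over 354 cytosines, with weighted means of 6.91% in control and 1.29% in cKO. Its 2 CG losses went from 93.8% to 60.1% over 6 CpGs and from 57.1% to 22.3% over 20 CpGs. By area statistic the second of these was the fourth strongest CG loss when each member was taken at its strongest.

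Il1r1, the signalling receptor of IL-1, had 11 regions over a gene of 93.7 kb. Its 3 CG losses went from 74.8% to 38.0%, from 95.8% to 72.3% and from 73.8% to 49.8%. Its 7 CHH losses had control levels of 3.08% to 9.52%, the widest being 454 bp and 165 cytosines long at 9.52% in control and 1.16% in cKO. The one CHH gain, 55.2 kb into the gene (40277719 to 40277845, 52 cytosines), went from 3.96% in control to 11.7% in cKO. It lay between a CHH loss at 40262445 and another at 40301882, so that regions of both directions stood in 1 gene body.

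The cluster of IL-1 family receptors on chromosome 1 was examined as a whole. From 10 kb before Il1r2 to 10 kb past Il18rap, the stretch of 487 kb holds 6 genes, of which Il1r2, Il1r1 and Il18r1 are members. It held 33 regions, with 8 CG losses, 0 CG gains, 23 CHH losses, 1 CHH gain and 1 CHG region. CHH losses in the gene bodies numbered 5 in Il1r2, 5 in Il1r1, 3 in Il1rl2, 1 in Il18r1 and 0 in Il1rl1 and Il18rap. The bodies toward Il18rap thus held fewer CHH losses, while single CG losses were found in Il1rl2, Il1rl1 and Il18rap. Il18r1, the ligand-binding chain of the IL-18 receptor, had a CG loss 1.10 kb before it that falls inside Il1rl1 (82.8% to 55.1%, 12 CpGs) and a CHH loss near its start (5.02% to 1.0%).

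**Figure D4:**
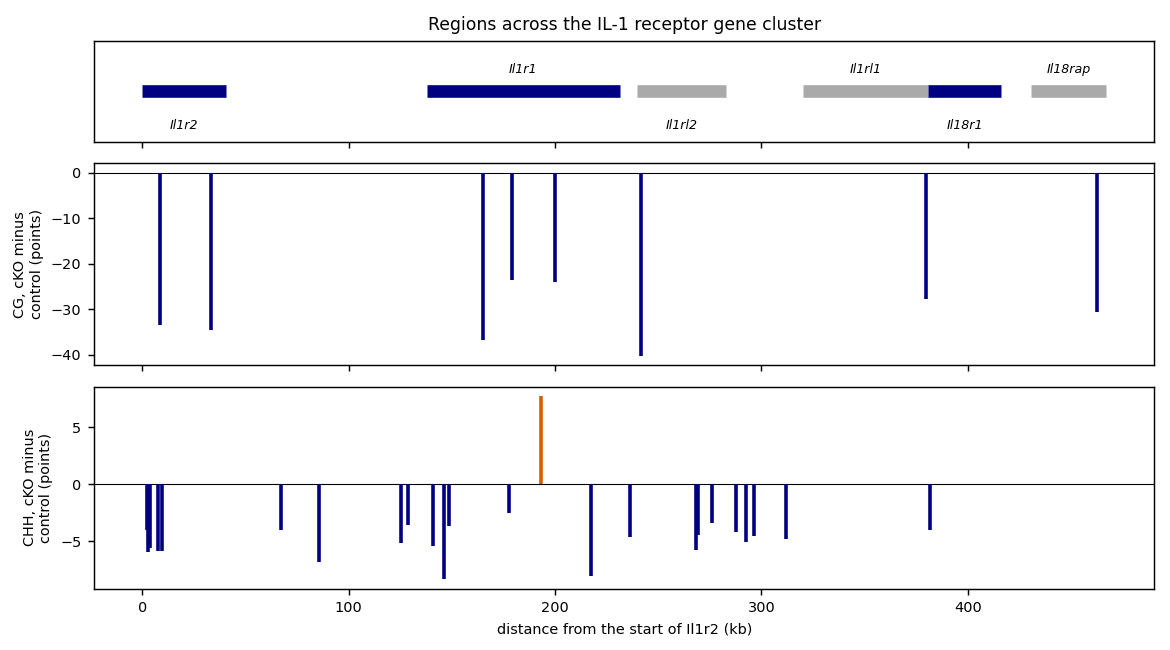
Difference of the authors' group means, cKO minus control in percentage points, for the CG regions (middle) and CHH regions (bottom) along the IL-1 receptor cluster, against distance from the start of Il1r2 in kb, with member genes in blue and other genes in grey (top). All 8 CG lines and 23 CHH lines point down, and the single orange CHH line up lies in Il1r1.

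Receptor chains for IL-2, IL-4, IL-15 and IL-21, which signal through the common gamma chain, each had CHH losses, and Il7r of the same family had no region. Il2rb, the signalling chain for IL-2 and IL-15, had 6 CHH losses (4.48% to 9.78% in control, 0.346% to 2.32% in cKO) and 3 CG losses. The CG losses all lay outside its body, and 1 of them, at 72.4% in control and 27.8% in cKO over 6 CpGs, had the largest difference of the 48 CG regions, at -44.6 points in the authors' deposited table. Il2ra, the chain that raises affinity for IL-2, had 3 CHH losses in its body and 0 CG regions, and its neighbour Il15ra, 12 kb away, had 1 CHH loss 1.56 kb before its start (4.12% to 0.596%). Il21r had 4 CHH losses in its body (4.51% to 5.77% in control, 0.546% to 1.37% in cKO) and 0 CG regions. Il4ra, 23.8 kb from Il21r on chromosome 7, had 4 CHH losses and 1 CG loss over 10 CpGs, which ends 458 bp before the gene and went from 52.8% to 25.1%.

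The TNF receptors differed in context. Tnfrsf1a, the widely expressed death-domain receptor of TNF, had 4 CG losses and 2 CHH losses. Of these, a CG loss past the gene lies inside Plekhg6 (78.1% to 41.7%) and a CHH loss before it inside Scnn1a (8.93% to 2.11%). By area statistic the strongest CG loss spans 549 bp and 35 CpGs from 125350323 to 125350871 on chromosome 6. It lies 600 bp into the gene and went from 46.3% to 17.5%. Another CG loss lay 724 bp before the gene, from 82.2% to 50%, so that the losses stood on both sides of the start window of the gene without touching it. Tnfrsf1b, the receptor found mainly on immune and endothelial cells, had 5 CHH losses (3.88% to 5.75% in control, 0.321% to 1.12% in cKO) and 0 CG regions. The difference in context was not tested.

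Il6ra, the binding chain for IL-6, was the receptor with the most CG losses. Its 5 CG losses had control levels of 62.6% to 87.4% and cKO levels of 29.4% to 56.3%, and 3 of them lay within 7.54 kb past the end of the gene. Its 2 CHH losses lay 8.80 and 8.93 kb past the end, and 0 in the gene body. Il10ra, the receptor chain of the anti-inflammatory IL-10, had 3 CHH losses, the one in its body from 10.5% to 1.84%. Il20ra, a receptor chain for IL-19, IL-20 and IL-24, had 3 CHH losses and a CG loss 1.6 kb before the gene (84.5% to 53.7%).

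By area statistic the 2 strongest CG losses of the whole list lay in the signalling gene Jak3, and the next in the receptor gene Tnfrsf1a. By difference in the authors' deposited table the largest CG loss was at Il2rb (-44.6 points). The 2 of Jak3, at -33.5 and -38.5 points, were nearer to the median of the 48 CG regions (-31.5 points). Jak3, the kinase of the common gamma chain, had 2 CG losses side by side in its body, 69 bp apart, over 165 CpGs and 2.15 kb from 71680276 to 71682421 on chromosome 8. The first went from 63.0% to 29.4% over 80 CpGs and the second from 72.0% to 33.5% over 85 CpGs. By area statistic in the authors' deposited table they ranked 41 and 11 among all 44497 CG losses. The remaining CG loss of Jak3, 5.57 kb before it and inside Unc13a, was already low in control (25.8%) and reached 7.42% in cKO. Its 2 CHH losses lay past the end of the gene. Jak2, the kinase of many cytokine and growth factor receptors, was unlike Jak3, with 0 losses and a single CHH gain 7.87 kb into the gene, from 2.28% in control to 7.84% in cKO over 47 cytosines.

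Tnfaip2, a gene induced by TNF, had 18 regions, the most of any member, with 12 CG and 6 CHH losses. By number of CG losses it ranked 220 among 21779 protein-coding genes. In the gene body 9 CG losses lay within 5.92 kb from 111443320 to 111449241 on chromosome 12, over 170 CpGs, with weighted means of 53.9% in control and 27.6% in cKO. They differed in starting level. The widest, 719 bp and 29 CpGs, went from 76.6% to 36.5%, whereas 2 denser ones in the middle, with 46 and 25 CpGs, had 24.2% and 33.0% in control and 13.6% and 15.7% in cKO. Of the 48 CG regions near members, 2 overlapped a CHH region and 10 had one within 1 kb. Both overlaps and 7 of the 10 were in Tnfaip2, and no such count was made over all protein-coding genes. Without Tnfaip2 36 CG losses remain near the other members.

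Stat4, the transcription factor downstream of IL-12, had 4 CG and 3 CHH losses over 120 kb. Its CG losses went from 59.6% to 20.5%, from 86.2% to 61.2%, from 55.2% to 23.4% and from 53.5% to 26.6%. Its CHH losses, with 4.61% to 6.64% in control and 1.09% to 2.32% in cKO, lay before the gene and in its first 10 kb. Tnfaip3 had none.

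**Figure D5:**
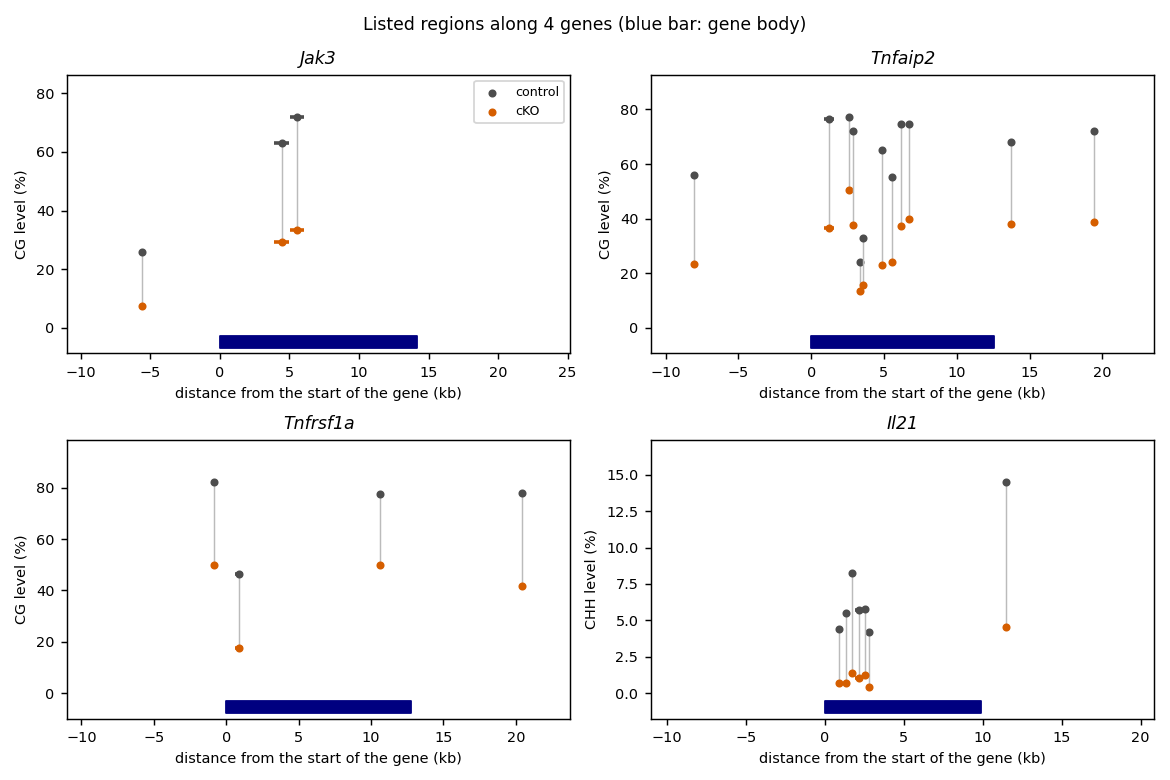
Authors' group mean methylation (vertical axis, percent) of listed regions along Jak3, Tnfaip2 and Tnfrsf1a (CG) and Il21 (CHH), against distance from the start of the gene in kb, with control in grey, cKO in orange and the gene body as a blue bar. Regions are packed in the bodies of Jak3 (2 regions), Tnfaip2 (9) and Il21 (6), and the cKO level is the lower in each region drawn.

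Within the members' losses, levels in cKO were low in CHH and intermediate in CG. Of the 85 CHH losses 74 had under 2% in cKO, and 11 had over 8% in control. The upper quartile of their cKO levels was 1.37%, near the 1.56% of all CHH losses near protein-coding genes. Of the 48 CG regions 44 had over 50% in control and 12 still had over 50% in cKO. CG regions were short, with 25 of 48 resting on under 10 CpGs, so that their means depend on few sites. This was ordinary for the table, with a median of 9 CpGs near members and 10 in all CG losses near protein-coding genes. In place, 31 of 48 CG regions (64.6%) and 54 of 87 CHH regions (62.1%) lay in a member's body and the rest in the flanks. The share in gene bodies was not counted for the regions of all protein-coding genes, so these shares only describe the members. The window sets which regions count. In its outer 1 kb, regions 9.02 kb to 9.73 kb from a gene body were 2 CG and 4 CHH losses, such as that of Csf2 at 9.73 kb (5.68% to 1.54%). Just outside, among regions near no member, were 1 CG loss 10.1 kb from Il1r1 (72.7% to 32.4%) and 1 CHH loss 10.2 kb from Stat4 (5.06% to 0.648%).

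Other genes of cytokine signalling were counted by the same rule. Of 89 further ligands, receptors, JAK, STAT, SOCS, TRAF and NF-kB genes, 71 had a region (79.8%, against 55.5% of all protein-coding genes). The median length of these 89 genes was 21.5 kb, against 14.6 kb for the members. Some regions counted for both lists, such as the CG loss before Il18r1 that falls inside Il1rl1. A CHH loss lay near 47 (52.8%), a CG loss near 44 (49.4%), a CG gain near 8 (8.99%) and a CHH gain near 21 (23.6%), where all protein-coding genes had 28.8%, 33.4%, 9.11% and 18.0%. CHH gains were listed at Il6st, the shared signalling chain of the IL-6 family (2.13% in control, 10.2% in cKO at the strongest), at Jak1 (1.80%, 8.64%), at Stat3 (2.64%, 15.1%) and at Nfkb1 (4.04%, 13.5%). Stat3 also had a CHH loss with a larger absolute area statistic than its gains, from 10.8% to 0.797%, and a CG loss from 74.3% to 49.3%. Nfkb1 also had CG regions of both directions, the strongest loss from 71.6% to 28.7% and the gain from 46% to 73.1%. Il17rd had 14 CG losses, the strongest from 78.9% to 34.1% over 64 CpGs. Whether these genes and the members differ was not tested.

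Markers of the cells that use cytokines were counted by the same rule, as the tissue was not sorted. The lists differ in gene length, with medians of 12.2 kb for microglia, 13.4 kb for lymphocyte, 41.6 kb for endothelial and mural and 38.7 kb for excitatory neuron markers. A CHH loss lay near 11 of 16 microglia markers (68.8%), 7 of 16 lymphocyte markers (43.8%), 14 of 16 endothelial and mural markers (87.5%) and 6 of 16 excitatory neuron markers (37.5%), against 28.8% of all protein-coding genes. A CG loss lay near 8 (50%), 8 (50%), 14 (87.5%) and 9 (56.2%) of them, against 33.4%. CG gains lay near 0 microglia markers and near 1 each of the lymphocyte and vascular markers, and near 5 excitatory neuron markers with 15 such regions, where all protein-coding genes had 9.11%. The part of cell type composition in the members' counts was not tested.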

How the data were processed

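Per the labels, DNA from somatosensory cortex was extracted with CTAB, sheared, bisulfite treated and sequenced. CASAVA, Bowtie2 and mm10 are named, without roles, in the submitters' processing notes; how regions were called is not given in the sources used here. The authors deposited 1 table of called regions, with the mean methylation level of each group as a fraction (printed as a percent), the difference cKO minus control, and an area statistic, a score with no fixed range used only for ranking. Per-library values and coverage are not in that table, so depth is unknown and no test was run. Levels over several regions were weighted by cytosines.

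Gene positions and start windows came from RefSeq on GRCm38.p6; autosomal and X entries in the first 3 Mb were left out. A region belonged to a gene when at least 1 bp fell within the body widened by 10 kb. "Before" and "past" follow the strand of the start windows. All 43 members matched. Members and lists were chosen with earlier results of these data known. Every member with a region could be named, with its regions by area statistic. Exons and the sequence inside regions were not analysed here. The overlap count was tested on simulated data (Python 3.11.15, pandas 2.3.3).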

Additional observations from a re-analysis of the deposited data

How the results depend on the processing

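The counts of members and of regions were recomputed under 8 alternatives. Keeping regions of at least 10 cytosines, or those with an area statistic at or above the median of their context, left 10 members with a CG loss in either case (23.3%, against 23.1% of all protein-coding genes), with 23 and 22 CG regions. Leaving out differences under 30 points in CG and 5 points in CHH left 18 members with any region (41.9% against 36.1%), 12 with a CHH loss, 28 CG regions and 21 CHH regions. The area filter left 50 CHH regions. The gene body alone held 31 CG and 54 CHH regions. A window of 20 kb brought in 1 member with a CG region higher in cKO. The other counts stayed within 1.5 times. The share of members with a CHH loss stayed above that of all protein-coding genes under all 8 alternatives, from 27.9% against 14.5% to 69.8% against 39.7%. Of 344 recomputed counts of regions per member, 259 stayed within 1.5 times and 85 moved. No paired analysis was possible because the deposited table holds group means and no values per library, so no library could be left out either, and no coverage minimum could be set.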

Other observations

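Some stretches around the members held regions beyond the window. Between 10 kb outside Il2 and 10 kb outside Il21, which lie 96.8 kb apart, 12 CHH losses and 4 CG losses were listed, so that Il2 had no region within 10 kb in a stretch with 16. Between Il4 and Il5, 102 kb apart and with their flanks, the listed regions were 4 CG losses, 1 CG gain, 2 CHH gains and 0 CHH losses. The CG gain, over 25 CpGs at 53636256 to 53636335 on chromosome 11, lay 17.6 kb from Il4 and went from 6.76% in control to 16.6% in cKO. It lay within 10 kb of Il13, a gene of the other cytokine list, which also had 4 CG losses by the same rule. The regions of this stretch are thus not those of Il4 and Il5 alone. Around Il1a and Il1b, 54.4 kb apart, 1 CHH loss was listed.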
